A study of Mus musculus with 9 samples.

Results

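The mRNA expression of 9 enzymes that break down amino acids was followed in mouse liver: Tat, Hpd, Hgd, Tdo2, Hal, Sds, Got1, Gpt and Gpt2. They were chosen by their role, with earlier results of these data known. Each was found through the probes whose transcript accession maps to its symbol, which gave 9 of the 20972 genes named on the array. Each gene had 1 probe, printed as 1 spot per array, and each probe was well above background on all 9 arrays, so that all 9 entered the test. The liver is the main site of amino acid breakdown, where transaminases move the amino group to a carrier and other enzymes open the carbon skeleton, feeding urea synthesis on the one side and glucose production on the other. Glucocorticoids and glucagon are known to raise several of these enzymes, Tat, Tdo2 and Sds among them, and insulin is known to counter the fasting programme to which they belong.

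The mice were male, of the C57BL/6J strain, and 20 weeks of age. STAM (STelic Animal Model) mice received low-dose streptozotocin, a toxin of the insulin-secreting cells, soon after birth and a high-fat diet from weaning, and they develop diabetes with fatty liver disease and liver tumours. STAM-NON mice had no further treatment, STAM-INS mice received insulin glargine under the skin every day with a dose adjusted to their blood glucose, and Normal mice received neither streptozotocin nor the high-fat diet but a CE-2 chow. There were 3 mice and 3 arrays in each group. STAM mice thus differ from Normal mice in both the toxin and the diet, streptozotocin also damages DNA, and the sources do not say whether the pieces of liver held tumour.

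Values are given as centred log2 signal, the log2 of a spot's background-subtracted intensity after the upper quartile of all non-control spots on its array was taken off, and a difference of 1 on this scale is a 2-fold change. Between 46.2% and 65.0% of the non-control spots of an array were well above background, and 0 spots were saturated. The 6 STAM arrays lay on one slide and the 3 Normal arrays on another, so that slide and group cannot be told apart in comparisons with Normal. The position on the slide also followed the groups, since all 3 STAM-NON arrays lay in row 1, all 3 Normal arrays in row 2, and the STAM-INS arrays in row 1 (replicate 1) and row 2 (replicates 2 and 3). No row held both STAM-NON and Normal arrays. All 7 hepatocyte markers measured were well above background on every array. Their summed signal, as a multiple of that quartile, ran from 3375 to 4709 in STAM-NON mice, from 4555 to 5131 in STAM-INS mice and from 5051 to 5233 in Normal mice. Only Cps1, the entry enzyme of the urea cycle, passed the test, lower by 0.67 in either comparison with Normal. Of the 7 markers, 0 had a mean above Normal in STAM-NON and 3 in STAM-INS. Their median differences from Normal were -0.34 and -0.23, against -0.13 and -0.09 for all probes. Here and below, a summed signal follows mainly the genes of its list with the highest signal.

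Hal, histidine ammonia-lyase, which removes ammonia from histidine as urocanate is formed, was the 1 member of 9 that fell in STAM-NON against Normal, a comparison in which 16.1% of all probes tested were called. Its centred log2 signal was 5.36, 5.85 and 5.02 in STAM-NON mice, 6.41, 5.86 and 6.22 in STAM-INS mice and 6.27, 6.91 and 6.54 in Normal mice. All 3 STAM-NON values lay below every Normal value, and the STAM-INS values lay between, reaching into the Normal range and just clearing the highest STAM-NON value by 0.0053. The level was 1.16 lower in STAM-NON than in Normal (SE 0.25, 95% interval -1.74 to -0.58, limma adjusted p = 0.0241), a 2.24-fold lower signal. In bulk liver, fewer cells that express a gene and less mRNA per cell cannot be told apart. With insulin, the level was 0.75 above that of STAM-NON (SE 0.25, 95% interval 0.17 to 1.33), with an unadjusted p of 0.0171 but a limma adjusted p of 0.494, so that this difference did not pass the test across all probes. The STAM-INS mean was 0.41 below Normal (95% interval -0.99 to 0.17, limma adjusted p = 0.290), and these groups overlapped. The fall in STAM-NON no longer passed the test without STAM-NON replicate 1 (-1.14, limma adjusted p = 0.0668), STAM-NON replicate 3 (-0.97, adjusted p = 0.0613), Normal replicate 2 (-0.997, adjusted p = 0.0748) or Normal replicate 3 (-1.18, adjusted p = 0.0695). With the slide row as a block the difference was -1.54 and did not pass the test either (limma adjusted p = 0.211). In that fit the row effect rests only on STAM-INS replicate 1 against STAM-INS replicates 2 and 3.

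Tdo2, tryptophan 2,3-dioxygenase, which opens the ring of tryptophan on the way to kynurenine, fell in STAM-INS against Normal and had a mean below Normal in STAM-NON that missed the threshold. Its values were 5.22, 5.48 and 4.76 in STAM-NON mice, 5.06, 4.57 and 5.20 in STAM-INS mice and 5.77, 5.86 and 5.98 in Normal mice. Both STAM groups lay wholly below Normal and overlapped each other. The difference from Normal was -0.93 in STAM-INS (SE 0.22, 95% interval -1.43 to -0.43, limma adjusted p = 0.0297), a 1.90-fold lower signal that passed the test. In STAM-NON it was -0.72 (SE 0.22, 95% interval -1.22 to -0.22, limma adjusted p = 0.0569), just outside the threshold. The difference between STAM-INS and STAM-NON themselves was -0.21 (95% interval -0.71 to 0.29, limma adjusted p = 0.819), so the pair of results against Normal was not shown to differ. The STAM-INS call was lost without STAM-INS replicate 1 (-0.99, limma adjusted p = 0.0584) or 2 (-0.74, adjusted p = 0.0986) and without Normal replicate 1 (-0.98, adjusted p = 0.0721), 2 (-0.93, adjusted p = 0.0787) or 3 (-0.87, adjusted p = 0.0960), while the difference in STAM-NON passed without STAM-NON replicate 2 (-0.88, adjusted p = 0.0406). With the row block the STAM-INS difference was -0.99 (limma adjusted p = 0.0586), outside the threshold.

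The sequence upstream of the start site is shown for Hal and Tdo2, the called members with an entry in the RefSeq promoter table of GRCm38.p6, as the 250 bases before the start, 5′ to 3′ on the strand of the gene. That of Hal lies at chr10:93488518-93488767 on the plus strand and that of Tdo2 at chr3:81975729-81975978 on the minus strand, and capitals mark the match to the C/EBP-type motif TTGCNNAA, C/EBP proteins being liver transcription factors.
Hal: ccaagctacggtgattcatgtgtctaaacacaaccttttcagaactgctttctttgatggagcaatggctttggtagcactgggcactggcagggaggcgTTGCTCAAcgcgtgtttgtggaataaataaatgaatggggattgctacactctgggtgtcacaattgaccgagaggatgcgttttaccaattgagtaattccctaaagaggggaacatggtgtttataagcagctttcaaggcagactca
Tdo2: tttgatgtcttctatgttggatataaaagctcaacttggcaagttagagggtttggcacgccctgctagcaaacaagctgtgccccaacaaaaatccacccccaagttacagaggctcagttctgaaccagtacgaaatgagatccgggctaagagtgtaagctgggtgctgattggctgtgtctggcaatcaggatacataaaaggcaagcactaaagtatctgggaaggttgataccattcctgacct
Of the 9 members, 7 had an entry, Sds and Gpt being the others. The motif search covered both strands. The C/EBP-type motif was found in 2 of these 7 windows, that of Hal, 150 bases before the start, and that of Hgd, 49 bases before it, and in 9.56% of all 32851 windows of this length. TGTTCT, one arm of the glucocorticoid receptor element, whose whole sequence was not searched, was in 0 of 7 against 16.1% of all windows, and the core of the cAMP element, TGACG, in 0 of 7 against 17.8%. The whole cAMP element TGACGTCA, which contains that core, the HNF4-type motif CAAAGTCCA and an HNF1-type motif were in 0 of 7 windows, against 1.55%, 0.384% and 0.0609% of all windows.

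The cytosolic alanine aminotransferase Gpt, which turns alanine into pyruvate and whose activity in serum is the usual test of liver injury, fell in STAM-INS against Normal. It read 6.50, 6.30 and 5.64 in STAM-NON mice, 5.87, 5.42 and 5.59 in STAM-INS mice and 6.63, 7.16 and 6.71 in Normal mice. Both STAM groups lay below all Normal values, and STAM-INS overlapped STAM-NON only through STAM-NON replicate 3. STAM-INS was 1.20 below Normal (SE 0.25, 95% interval -1.77 to -0.64, limma adjusted p = 0.0193), a 2.30-fold lower signal and the largest of the 27 differences measured here. STAM-NON was 0.68 below Normal in value (95% interval -1.25 to -0.12, limma adjusted p = 0.0881) without passing the test. The difference between STAM-INS and STAM-NON was -0.52 (95% interval -1.08 to 0.04, limma adjusted p = 0.587). The STAM-INS call was lost without STAM-INS replicate 2 (-1.10, limma adjusted p = 0.0787) or 3 (-1.19, adjusted p = 0.0572) and without Normal replicate 2 (-1.04, adjusted p = 0.0622) or 3 (-1.27, adjusted p = 0.0551).

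The mitochondrial alanine aminotransferase, Gpt2, had another pattern. Its values were 5.73, 4.803 and 4.72 in STAM-NON mice, 4.77, 4.43 and 4.30 in STAM-INS mice and 4.88, 5.33 and 4.89 in Normal mice. The STAM-INS values lay below all Normal values, while STAM-NON spanned the Normal range, with replicate 1 above it. None of its comparisons passed the test: the difference was 0.05 for STAM-NON minus Normal (95% interval -0.58 to 0.69, limma adjusted p = 0.907), -0.53 for STAM-INS minus Normal (-1.17 to 0.10, adjusted p = 0.218) and -0.59 for STAM-INS minus STAM-NON (-1.22 to 0.05, adjusted p = 0.587). Got1, the cytosolic aspartate aminotransferase, was the most variable of the 9. It read 7.21, 6.14 and 5.82 in STAM-NON mice, 7.14, 6.38 and 5.65 in STAM-INS mice and 5.63, 6.39 and 6.08 in Normal mice. In each STAM group 1 array stood above the rest by about the height of the whole Normal range or more, and all 3 groups overlapped. Its SD reached 0.73 among STAM-NON mice, 0.74 among STAM-INS mice and 0.38 among Normal mice (n = 3 each). The difference was 0.36 for either STAM group minus Normal (SE 0.45, 95% interval -0.67 to 1.39), so that neither a 2-fold rise nor the lack of any change was outside the error.

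**Figure D1:**
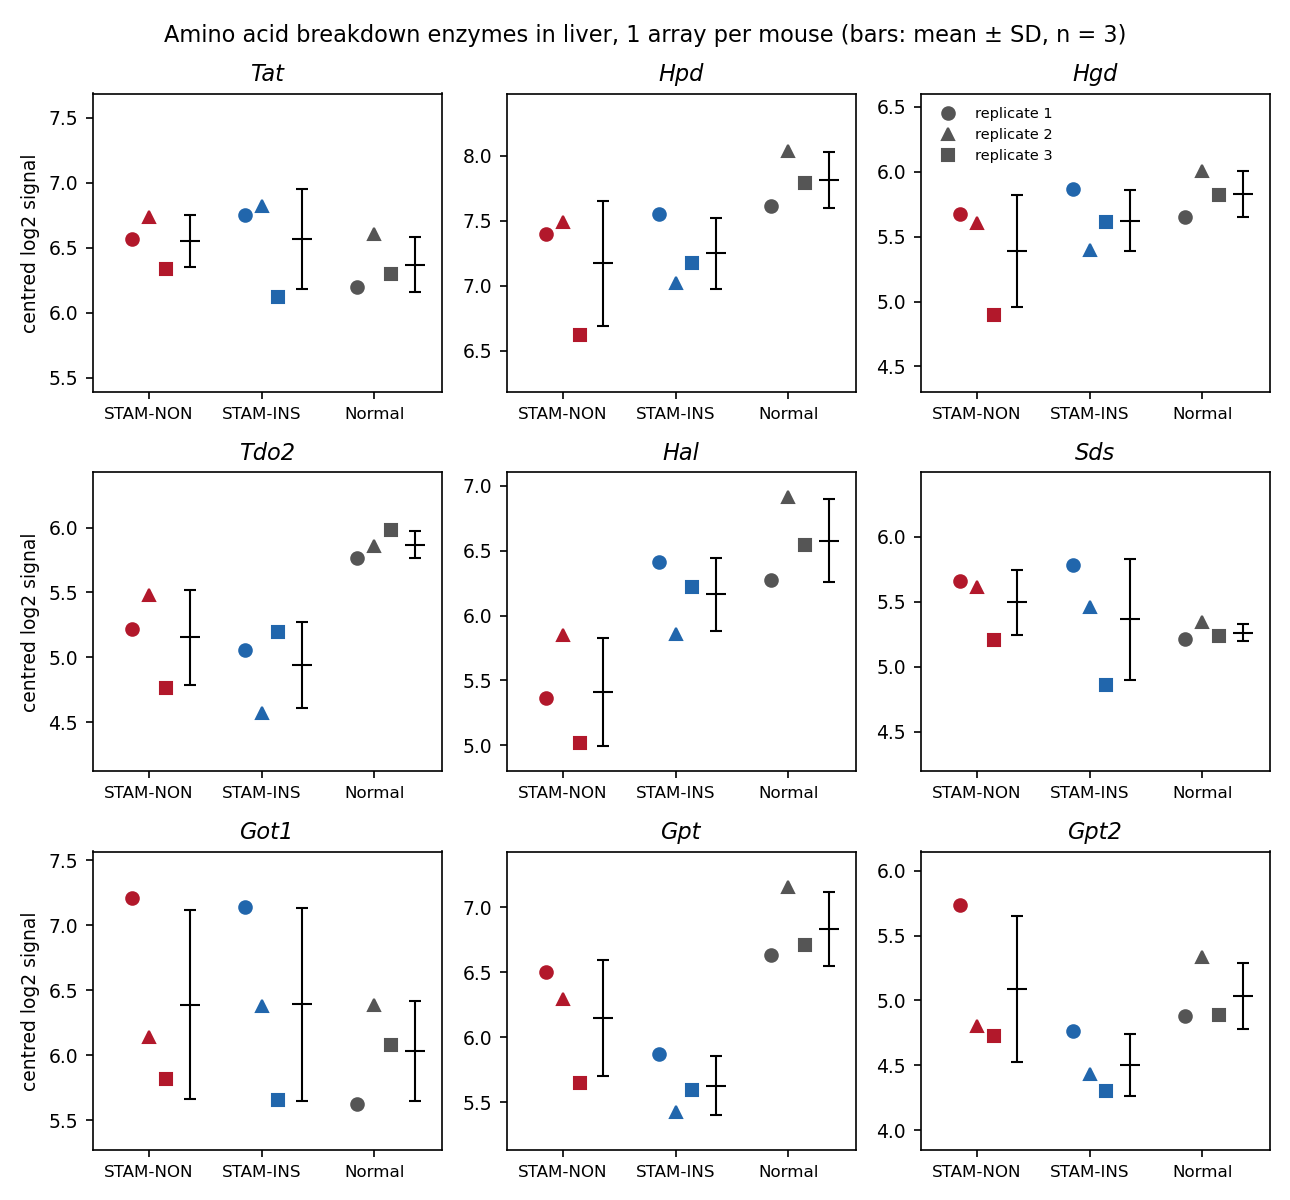
Centred log2 signal (vertical axis) of each of the 9 enzymes on the 9 arrays, by group (horizontal axis), with circles, triangles and squares for replicates 1, 2 and 3 and black bars for the mean ± SD (n = 3). Each panel spans the same height of the log2 scale. All STAM-NON values lie below all Normal values for Hpd, Tdo2, Hal and Gpt, and Got1 shows the widest spread within the STAM groups.

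The chain that degrades tyrosine is held by 3 of the members. Tat, tyrosine aminotransferase, takes the first step and is a classical gene of the glucocorticoid response. Its values were 6.57, 6.74 and 6.34 in STAM-NON mice, 6.75, 6.82 and 6.13 in STAM-INS mice and 6.20, 6.61 and 6.30 in Normal mice. The groups overlapped throughout, with differences of 0.18 (STAM-NON minus Normal, 95% interval -0.31 to 0.66, limma adjusted p = 0.564), 0.02 (STAM-INS minus STAM-NON, -0.47 to 0.50, adjusted p = 0.989) and 0.20 (STAM-INS minus Normal, -0.29 to 0.68, adjusted p = 0.544). These intervals leave out a 2-fold change of Tat in either direction in all 3 comparisons.

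Hpd, 4-hydroxyphenylpyruvate dioxygenase, takes the product of Tat to homogentisate. It read 7.40, 7.49 and 6.62 in STAM-NON mice, 7.55, 7.02 and 7.18 in STAM-INS mice and 7.61, 8.04 and 7.79 in Normal mice. Both STAM groups lay below every Normal value, by a mean of 0.64 in STAM-NON (95% interval -1.22 to -0.07, limma adjusted p = 0.109) and 0.56 in STAM-INS (95% interval -1.14 to 0.01, limma adjusted p = 0.161), and neither difference passed the test. Hgd, homogentisate 1,2-dioxygenase, opens the ring in the next step. It read 5.68, 5.60 and 4.90 in STAM-NON mice, 5.86, 5.40 and 5.61 in STAM-INS mice and 5.65, 6.01 and 5.82 in Normal mice. One low STAM-NON array, replicate 3, carried most of the difference of -0.43 from Normal (95% interval -0.95 to 0.08, limma adjusted p = 0.200), which was -0.19 without it. Neither Hpd nor Hgd moved with insulin beyond its error, with differences of 0.08 (95% interval -0.50 to 0.65) and 0.23 (95% interval -0.28 to 0.75).

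Sds, serine dehydratase, turns serine into pyruvate and is a marker of gluconeogenesis from amino acids. It read 5.66, 5.62 and 5.21 in STAM-NON mice, 5.78, 5.46 and 4.86 in STAM-INS mice and 5.21, 5.34 and 5.24 in Normal mice. The Normal values lay close together (SD 0.07, n = 3) and inside or at the edge of both STAM ranges. No difference of Sds passed the test, at 0.23 for STAM-NON minus Normal (95% interval -0.30 to 0.76), -0.13 for STAM-INS minus STAM-NON (-0.66 to 0.40) and 0.10 for STAM-INS minus Normal (-0.43 to 0.63).

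Counted over the 9 members, STAM-NON against Normal gave 1 call, Hal, against 16.1% of all 26277 probes tested (9.76% called lower). There 4 members did not overlap between the groups, all of them lower, against 41.2% of all probes in either direction and 28% lower, and 4 had an unadjusted p under 0.05, against 35.8% of all probes. STAM-INS against Normal gave 2 calls, Tdo2 and Gpt, both lower, against 13.9% of all probes (8.73% called lower). The members without overlap were Hpd, Tdo2, Gpt and Gpt2, 4 of 9 and all lower, against 44% of all probes and 29% lower, and 2 had an unadjusted p under 0.05, against 32.5% of all probes. Counted in either direction, these shares are near those of the whole array. In the lower direction alone, the shares of members called or without overlap were above those of all probes, over only 9 members. Whether they differ was not tested. STAM-INS against STAM-NON gave 0 of 9 by limma, against 0.0913% of all probes (24 probes), and 1 of 9, Hal, at an unadjusted p under 0.05, against 8.78% of all probes. Hal was the 1 member without overlap there, higher in STAM-INS, against 12.2% of all probes and 7.24% higher. Of the 9 intervals for the insulin comparison, those of Hal, Got1, Gpt and Gpt2 reached past a 2-fold change, so that changes of that size were not outside the error for these 4 genes. The median difference of the 9 was -0.43, 0.00 and -0.41 in the comparisons STAM-NON minus Normal, STAM-INS minus STAM-NON and STAM-INS minus Normal, where all probes had medians of -0.13, 0.03 and -0.09. The comparisons with Normal share the Normal arrays.

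**Figure D2:**
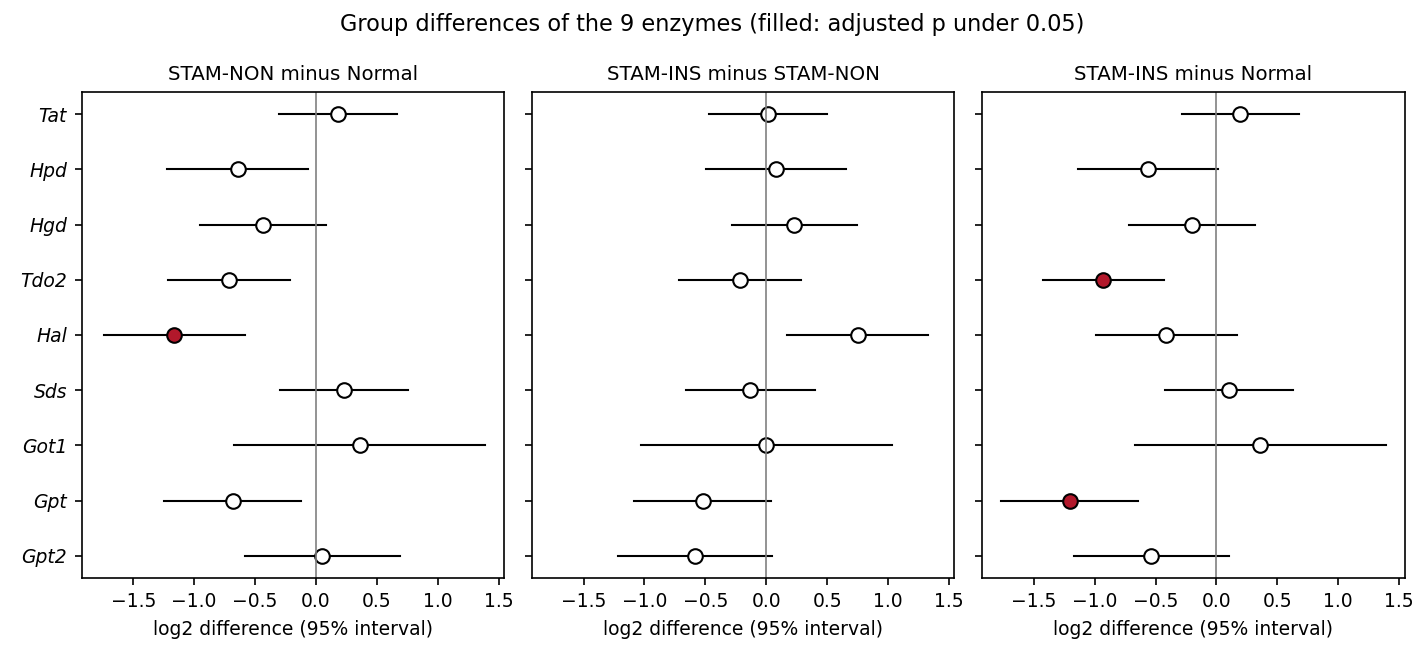
Log2 difference (horizontal axis) of each of the 9 enzymes in the 3 group comparisons, with the 95% interval from limma as a line and filled circles for adjusted p under 0.05. The filled points are Hal at -1.16 (STAM-NON minus Normal), and Tdo2 at -0.93 and Gpt at -1.20 (STAM-INS minus Normal), and no point is filled for STAM-INS minus STAM-NON.

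The size of the differences from Normal moved with the scaling of the arrays. Centring on the E1A spike-in spots set the median of all probes for STAM-NON minus Normal at 0.17 in place of -0.13, and centring on the median spot set it at -0.29. Relative to the median of all probes, Hal lay between -1.03 and -0.86 under the 6 scalings, Tdo2 between -0.58 and -0.41, Gpt between -0.55 and -0.37, and Hpd between -0.51 and -0.35. Tat lay between 0.31 and 0.51 above that median, Sds between 0.37 and 0.51, and Got1 between 0.49 and 0.66. Under all 6 scalings Hal, Tdo2, Gpt, Hpd and Hgd thus lay below the median probe and Tat, Sds, Got1 and Gpt2 above it. Scalings that only shift each array as a whole leave these relative values the same by construction. They are the main centring and those on the median, the spike-in spots and the percentile of probes detected on all arrays. Only the normexp background correction and quantile normalization could move the relative values. All 3 calls were lost with spike-in centring, that of Hal at -0.86 (limma adjusted p = 0.0635), that of Tdo2 at -0.85 (adjusted p = 0.0573) and that of Gpt at -1.13 (adjusted p = 0.0555), and that of Tdo2 was lost also with quantile normalization (-0.73, adjusted p = 0.0521). Without a filter on dim probes the limma adjusted p was 0.0989 for Hal, 0.127 for Tdo2 and 0.0888 for Gpt.

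The enzymes also shared a pattern among mice of one group. All 9 were lowest of their group on STAM-NON replicate 3, where 36.7% of all tested probes had their lowest value. Under each of the 6 scalings 8 or 9 of 9 were so, while the share of all tested probes ran from 29.1% to 63.1%. With the main scaling, of 54 other enzymes of amino acid breakdown 42 were lowest there, and of the 7 hepatocyte markers 1 was, 6 being lowest on STAM-NON replicate 1. The marker count moved with the scaling. Centred on the median or on the E1A spots, 4 of the 7 markers were lowest on STAM-NON replicate 3 and 3 on replicate 1. On the same array the summed signal of 10 periportal markers was 1129, against 1673 and 1722 on the other STAM-NON arrays, and that of 9 pericentral markers was 447, against 763 and 927. All 9 members were likewise lowest in their group on Normal replicate 1, against 35.0% of all tested probes. With arrays centred on the median, however, only 2 of 9 were, against 12.8%. STAM-INS replicate 1 was the highest of its group for 7 of the 9, against 34.3% of all tested probes. The part of these mice's differences in the group results was tested only by leaving out single arrays.

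A wider list of enzymes of the same routes, 56 genes with 54 tested, was set beside the 9. None was called higher in any comparison. In STAM-NON against Normal 15 of 54 fell and 51 of 54 had a value below Normal, with a median difference of -0.56. In STAM-INS against Normal 14 of 54 fell, with a median of -0.49. Of all probes, 9.76% and 8.73% were called lower in these comparisons, with medians of -0.13 and -0.09. In STAM-INS against STAM-NON 0 of 54 were called and the median was 0.07. The count including regulators and transporters ranged from 2 to 24 for STAM-NON and from 1 to 27 for STAM-INS against Normal when single arrays were left out, against 16 and 18 of 78 with all arrays, the lowest counts being those without Normal replicate 3 and Normal replicate 2 and the highest those without STAM-NON replicate 2 and STAM-NON replicate 3. Without a filter on dim probes 0 of the wider genes were called in either comparison, and with the slide row as a block 0 were called in STAM-NON and 9 in STAM-INS.

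The neighbours of the members in their own chains can be followed step by step. In tyrosine breakdown, Fah, fumarylacetoacetase, takes the last step after Hgd. It read 5.94, 6.14 and 6.02 in STAM-NON mice, 6.18, 6.26 and 6.28 in STAM-INS mice and 6.49, 6.79 and 6.62 in Normal mice, with no overlap between any of the groups. Fah fell in STAM-NON by 0.60 (SE 0.12, limma adjusted p = 0.0174) and stood at -0.39 in STAM-INS (limma adjusted p = 0.0565). Qdpr, which regenerates the cofactor tetrahydrobiopterin, also fell in STAM-NON, by 0.60 (SE 0.16, limma adjusted p = 0.0380), and stood at -0.10 in STAM-INS. All 6 enzymes listed beside Tat, Hpd and Hgd had a mean below Normal in both STAM groups, and 2 of them passed the test in STAM-NON. Tat, at 0.18 and 0.20, was the enzyme of this chain with a mean above Normal.

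In histidine breakdown 1 of the 3 enzymes after Hal fell in STAM-NON and none in STAM-INS. Uroc1, urocanase, which acts on the product of Hal, read 5.81, 6.05 and 5.63 in STAM-NON mice, 6.12, 5.98 and 6.06 in STAM-INS mice and 6.28, 6.53 and 6.56 in Normal mice. It fell in STAM-NON by 0.63 (SE 0.14, limma adjusted p = 0.0256) and stood at -0.40 in STAM-INS (limma adjusted p = 0.0884). The later enzymes Amdhd1 and Ftcd differed from Normal by -0.60 and -0.51 in STAM-NON without passing the test. All 3 had a higher mean in STAM-INS than in STAM-NON, by 0.08 to 0.56, and none of these passed the test.

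On the tryptophan side, Afmid, which acts on the product of Tdo2, had the largest difference of the 54 in STAM-NON against Normal. It read 1.97, 1.83 and 1.76 in STAM-NON mice, 2.43, 1.23 and 1.98 in STAM-INS mice and 3.34, 3.75 and 3.37 in Normal mice. The STAM values all lay below the Normal values, by a mean of 1.63 in STAM-NON (SE 0.28, limma adjusted p = 0.0129) and of 1.60 in STAM-INS (SE 0.28, limma adjusted p = 0.0110), a 3.10-fold and a 3.04-fold lower signal. Haao, a later enzyme of the same route, fell in STAM-NON by 0.65 (limma adjusted p = 0.0469) and stood at -0.19 in STAM-INS. Of the 11 enzymes of the route 2 fell in STAM-NON and 1 in STAM-INS.

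Among the routes of serine, threonine, glycine and proline 4 of 9 enzymes fell in either comparison with Normal: Prodh and Prodh2, which oxidise proline and hydroxyproline, Aldh4a1, which completes that oxidation, and Gcat, which cleaves a product of threonine. In STAM-NON, Prodh fell by 1.09 (limma adjusted p = 0.0214) and Gcat by 0.97 (adjusted p = 0.00818). Sdsl, the relative of Sds, differed by 0.21 and 0.44 without passing the test. In the breakdown of branched-chain amino acids 6 of 18 enzymes fell in STAM-NON and 7 of 18 in STAM-INS, led by Acadsb, a dehydrogenase of the isoleucine route, at -1.17 (SE 0.21, limma adjusted p = 0.0141) and -1.03 (SE 0.21, limma adjusted p = 0.0174). Ivd, Hibadh and Dbt were the next in STAM-NON, at -0.99, -0.96 and -0.92. Aass, the entry enzyme of lysine breakdown, was the 1 of 3 lysine enzymes called, in STAM-INS, at -0.92 (limma adjusted p = 0.0429). In STAM-NON, Aass stood at -0.78 without passing the test. None of the 4 listed partners of transamination was called, Got2, the mitochondrial aspartate aminotransferase, standing at -0.38 in STAM-NON.

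**Figure D3:**
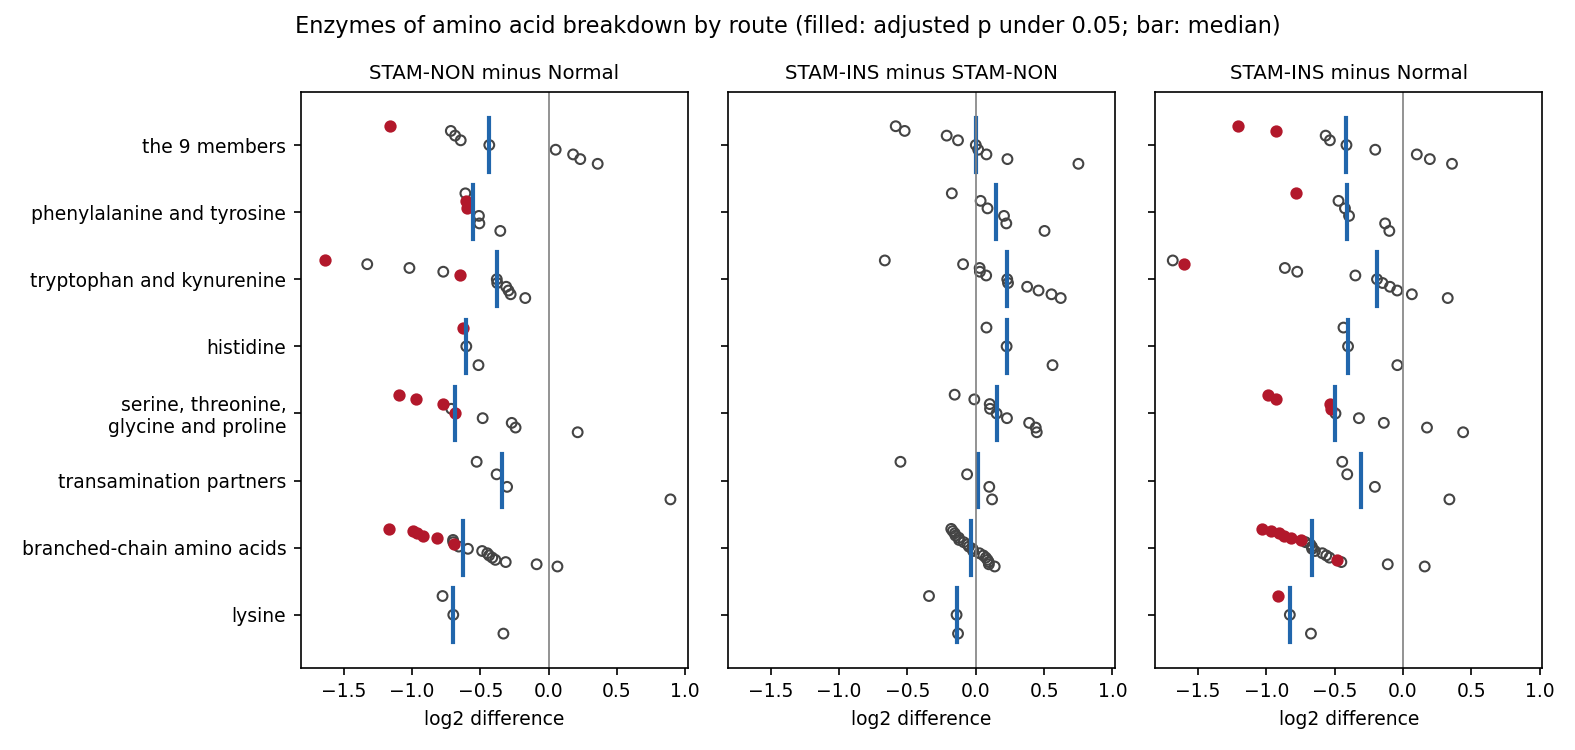
Log2 difference (horizontal axis) of the 9 members and of 54 other enzymes of amino acid breakdown, 1 circle per gene, by route (vertical axis) in the 3 comparisons, with filled circles for adjusted p under 0.05 in limma and a vertical bar for the median of each route. Filled circles lie below 0 in both comparisons with Normal, 15 and 14 of them among the 54 other enzymes, and there are none for STAM-INS minus STAM-NON.

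Of 13 regulators of these genes 0 were called in STAM-NON and 2 fell in STAM-INS against Normal. Klf15, a factor that drives amino acid breakdown in fasting, read 3.32, 3.41 and 3.04 in STAM-NON mice, 2.81, 3.02 and 2.66 in STAM-INS mice and 3.41, 3.89 and 3.96 in Normal mice. STAM-INS lay below both other groups, by 0.92 from Normal (SE 0.18, limma adjusted p = 0.0172), and STAM-NON stood at -0.50 from Normal (limma adjusted p = 0.0935). The Klf15 difference between STAM-INS and STAM-NON was -0.43 and did not pass the test. Their ranges almost touched, and 12.2% of all tested probes had no overlap in that comparison. Foxo1, a factor that insulin signalling keeps out of the nucleus, fell by 0.64 in STAM-INS against Normal (limma adjusted p = 0.0326). Its mean in STAM-NON was also below Normal, without passing the test. Neither the glucocorticoid receptor Nr3c1 (-0.40, limma adjusted p = 0.0847) nor the glucagon receptor Gcgr (-0.46, adjusted p = 0.0580) passed the test in STAM-NON against Normal. Their groups did not overlap, which held for 41.2% of all tested probes in either direction and for 28% in the lower direction. Of 11 amino acid transporters, Slc38a3, the glutamine carrier of hepatocytes, fell in both comparisons, by 0.61 and 0.60 (limma adjusted p = 0.0394 and 0.0434), and Slc43a1 fell in STAM-INS, by 2.06 (limma adjusted p = 0.0302). In STAM-NON, Slc43a1 stood at -1.57 without passing the test.

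Markers of other cells differed in the same comparisons with Normal. Of all 26277 probes tested, 1655 were called higher than Normal in STAM-NON and 1356 in STAM-INS. Of 6 macrophage markers measured, 2 were called higher in STAM-NON and 2 in STAM-INS, and their summed signal was 179 to 307 and 146 to 349 against 84.9 to 129 in Normal. Of 4 biliary markers 3 were called higher in STAM-NON and 1 in STAM-INS, with sums of 3.59 to 8.97 and 3.36 to 5.35 against 1.52 to 2.74. The fetal liver gene Afp was higher than in Normal in both STAM groups, by 3.10 in STAM-NON (limma adjusted p = 0.0269) and by 3.30 in STAM-INS (limma adjusted p = 0.0222). None of 7 stellate cell and fibroblast markers was called, but 6 of the 7 had a mean above Normal in STAM-NON, with Col1a1 at 1.89, Col1a2 at 1.32 and Col3a1 at 1.22. The summed signal of these 7 was 86.0 to 140.1 in STAM-NON mice, above the 71.4 to 81.1 of Normal mice without overlap, and 66.5 to 84.6 in STAM-INS mice. Dcn, with the highest signal of the 7, had means of 6.55, 6.05 and 5.92 in STAM-NON, Normal and STAM-INS mice. None of 5 endothelial markers was called, and of 3 lymphocyte markers Ptprc was called higher in both STAM groups. Among hepatocyte zone markers, 2 of 10 periportal genes fell in STAM-NON, Cyp2f2 by 1.16 and Arg1 by 0.42. In STAM-INS 3 of the 10 fell, Cyp2f2 by 0.80, Asl by 0.49 and Arg1 by 0.46, while Ctsc was called higher, by 0.83 (limma adjusted p = 0.0185). The summed periportal signal was 1129 to 1722 in STAM-NON mice, 1419 to 1646 in STAM-INS mice and 1961 to 2115 in Normal mice. Of 9 pericentral genes 1 was called, Cyp1a2, which fell by 2.97 in STAM-NON and by 2.26 in STAM-INS, and the sums were 447 to 927, 449 to 827 and 1193 to 1261. Cyp2e1, with the highest signal of the 9, had means of 9.14, 9.11 and 10.02 in STAM-NON, STAM-INS and Normal mice and was not called. Their part in the differences of the 9 enzymes was not tested.

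Hal was the member with the largest difference in STAM-NON against Normal and in STAM-INS against STAM-NON, and its profile over the 9 arrays was compared with those of 12832 other genes as the root-mean-square difference after each gene's own mean was removed. The closest was Hsd3b7, an enzyme of bile acid synthesis, at 0.158, followed by Pms1 at 0.180, Gstm6 at 0.196, Aspg at 0.199 and Gphn at 0.208, while the SD of Hal itself over the 9 arrays was 0.59. Hsd3b7 read 6.90, 7.17 and 6.39 in STAM-NON mice, 7.73, 7.19 and 7.57 in STAM-INS mice and 7.35, 7.91 and 7.68 in Normal mice. In all 5 genes, as in Hal, each STAM-NON value lay below each Normal value, and their differences for STAM-NON minus Normal ran from -1.16 to -0.78. The 5 genes were picked by their likeness to Hal over these same 9 arrays, so that their shared order of groups largely follows from the choice. These likenesses are descriptions only.

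**Figure D4:**
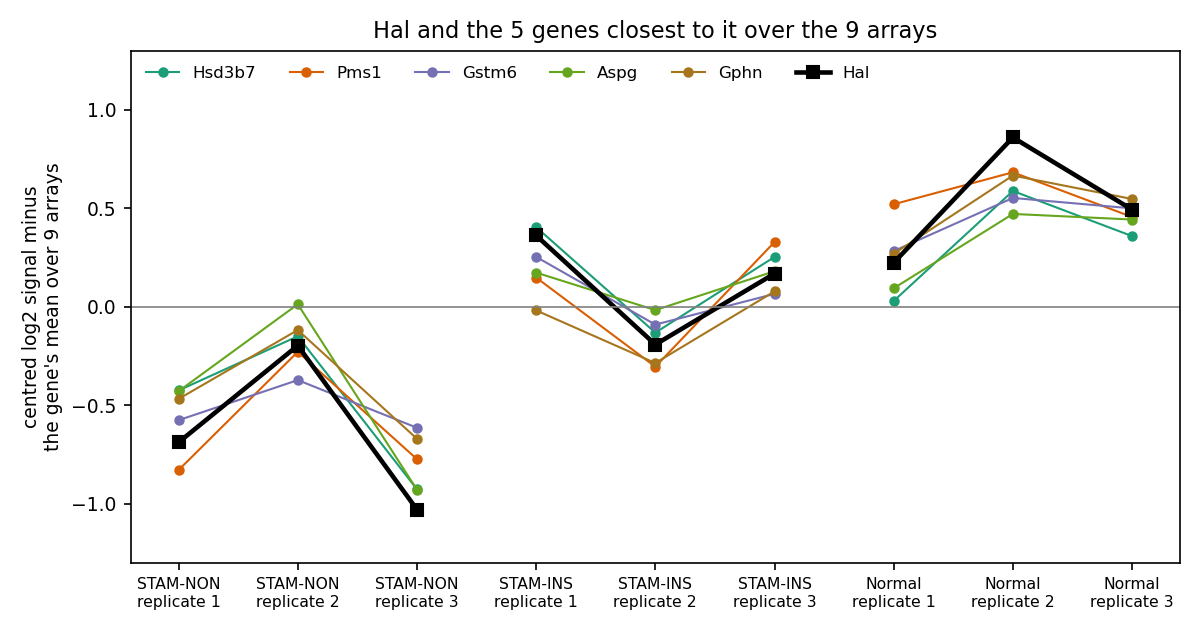
Centred log2 signal minus the gene's own mean over the 9 arrays (vertical axis) for Hal (black squares) and the 5 genes with the lowest root-mean-square difference from it (coloured circles), on each array (horizontal axis), with lines joining only the arrays of 1 group. STAM-NON replicate 3 is the lowest point of Hal and Normal replicate 2 the highest.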

How the data were processed

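Liver RNA of 3 STAM-NON, 3 STAM-INS and 3 Normal mice was labelled with Cy3 and hybridised to 1-colour Agilent mouse arrays, 1 array per mouse. The authors deposited the scanner output of Agilent Feature Extraction 11.5.1.1, in which the intensity of each spot is given after background subtraction, not normalised between arrays. The array design is of the mm9 build. Probes were named by their accessions, without versions, through a RefSeq table of GRCm38.p6 (27656 of 55681 probes, 20972 symbols), used for names only.

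The deposited processed intensity was taken to log2 and centred on the upper quartile of the non-control spots of its array, spots with an outlier flag (161 to 217 per array) were left out, and spots of 1 probe were averaged. Testing was limited to probes for which a share of 0.5 or more of the spots was well above background on all 3 arrays of 1 group or more. Of these, 12 probes without a value on an array were dropped, and 26277 remained. For the group comparisons, limma 3.58.1 (R 4.3.3) was fitted to all 9 arrays with moderated two-sided tests and no intensity trend, with 6 residual degrees of freedom and Benjamini-Hochberg adjustment over all tested probes at 0.05. Neither normalisation nor testing of the arrays is described in the sources used here. Where a gene had several tested probes, the one with the highest mean was taken. The code was tested on simulated data.

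All 9 members are named. From the wider lists, at most the 4 called genes with the largest difference per list and direction are named, with Nr3c1, Gcgr and Klf15, while the uncalled neighbours, among them Amdhd1, Ftcd, Sdsl and Got2, and the marker genes were named after their values were seen. Single values of some list members are not reported here. The members and lists were chosen with earlier results of these data known. The number of arrays limits the precision. Alternatives are given in the closing section, and for the normexp background correction the median spot intensity was used.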

Additional observations from a re-analysis of the deposited data

How the results depend on the processing

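The number of arrays, 3 per group, and the confounding of slide with group limit the comparisons with Normal, and a slide block could not be fitted. The slide row block rests on STAM-INS alone, the only group with arrays in both rows. None of the 9 members was called in STAM-INS minus STAM-NON under any of the 21 alternatives, and no wider gene was. Of the single differences of the members, 502 kept their direction and side of the threshold, 24 kept the direction but lost the call, 5 gained it and 36 turned direction, 0 of these past the threshold. The cause of each change below was not tested.

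Called members in STAM-NON minus Normal were 2 with normexp, with median centring, with the stricter filter and with an intensity trend and robust moderation, and 0 with E1A centring, without a filter on dim probes, with the replicate block and with the slide row block. In STAM-INS minus Normal they were 1 with quantile normalization, the replicate block and the row block, and 0 with E1A centring and without a filter. Wider genes called, 16 in STAM-NON minus Normal, were 4 with quantile normalization, 7 with the detected-probe percentile, 3 with E1A centring, 0 without a filter, 9 with only the 2 groups compared, 26 with trend and robust moderation, 6 with the replicate block and 0 with the row block. For STAM-INS minus Normal, where 18 were called, they were 5, 6, 2, 0 and 34 under the first 5 of these, and 5 with the replicate block and 9 with the row block. Leaving out 1 array gave 0 to 2 called members in either comparison with Normal and 0 to 0 in STAM-INS minus STAM-NON, and 2 to 24 wider genes in STAM-NON minus Normal, 1 to 27 in STAM-INS minus Normal and 0 to 0 in STAM-INS minus STAM-NON. The replicate numbers were not taken to pair the mice. The correlation of deviations between arrays of one number ran from -0.29 to 0.15 and passed 0.1 in 1 of 9 pairs. Between arrays of different numbers it ran from -0.19 to 0.28. With 3 arrays per group these values cannot exclude a pairing. Among all probes, 1655 higher and 2565 lower calls in STAM-NON minus Normal became 2370 and 446 with E1A centring, 2150 and 981 with the detected-probe percentile, 1539 and 1425 with quantile normalization and 1313 and 3387 with normexp. In STAM-INS minus Normal 1356 higher and 2294 lower became 974 and 895 with E1A centring and 1736 and 1239 with the detected-probe percentile.

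Differences that turned direction were, for STAM-NON minus Normal, Gpt2 with median centring (-0.10) and, with the row block, Tat (-0.10), Sds (-0.39), Got1 (-0.76) and Gpt2 (-0.35). For STAM-INS minus STAM-NON they were Got1 with normexp (-0.022), quantile normalization (-0.070), the detected-probe percentile (-0.043), median centring (-0.018) and E1A centring (-0.22), Tat with quantile normalization (-0.074), the detected-probe percentile (-0.025), median centring (-0.00046) and E1A centring (-0.20), Hpd with E1A centring (-0.14) and Sds with the row block (0.28). For STAM-INS minus Normal they were Hgd with quantile normalization (0.0065), Sds with median centring (-0.069) and the row block (-0.11), and Got1 with the row block (-0.014). Leaving out 1 array also turned some. For STAM-NON minus Normal Got1 ran from -0.051 to 0.64 and Gpt2 from -0.27 to 0.23. For STAM-INS minus STAM-NON Tat ran from -0.11 to 0.24, Hpd from -0.20 to 0.24, Hgd from -0.016 to 0.37, Sds from -0.34 to 0.12 and Got1 from -0.37 to 0.41. For STAM-INS minus Normal Sds ran from -0.11 to 0.36 and Got1 from -0.014 to 0.73.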
